A study of Mus musculus with 3 samples.

Results

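The small leucine-rich proteoglycans are a family of secreted matrix proteins, and 9 of them were followed here across the cells of healing mouse skin wounds. The members were *Dcn* (decorin), *Bgn* (biglycan), *Aspn* (asporin), *Lum* (lumican), *Fmod* (fibromodulin), *Prelp* (prolargin), *Omd* (osteomodulin), *Ogn* (osteoglycin) and *Podn* (podocan). They were taken by symbol, matched through the Ensembl gene ID, and make up 9 of the 32285 genes in the count tables.

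Each protein of this family has a core of leucine-rich repeats that lies in the matrix and, in most members, binds collagen fibrils. Several carry chondroitin, dermatan or keratan sulphate chains, and the core proteins and their chains affect how thick collagen fibrils become and how growth factors such as transforming growth factor beta are held in the matrix. In skin they are known as products of dermal fibroblasts, and decorin and biglycan are among the best studied matrix proteins of wounds and scars.

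Wound tissue of adult male C57BL/6J mice, an inbred laboratory strain for which the labels name no altered allele or treatment, was taken on Days 3, 7 and 14 after wounding, and its single cells were sequenced in droplets. The cells of several wounds were pooled into 1 library for each day. Differences between days thus lack replicates, no test was possible and no p-value is given. The repository entry calls the injury incisional and the methods of the study describe full-thickness punch wounds, and unwounded skin was not analysed here. Values are CPM, the unique molecular identifiers (UMIs) of a gene, tags that let each captured mRNA be counted once, scaled to the total of the cells that were summed, with 95% intervals that cover counting error only.

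The 3 libraries held 38133650 to 120940799 UMIs, and 37595 cells were kept. Fibroblast-like cells numbered 412 on Day 3, 5991 on Day 7 and 6646 on Day 14, which was 9.43%, 30.4% and 49.1% of the cells. They were named from 8 fibroblast markers, none of them a member of the family, so the level of these markers describes the naming and is no test of it. The markers summed to 65524.5, 111749 and 135073 CPM in these cells and to 410, 3868 and 5135 CPM in macrophage-like cells. The 8 macrophage markers summed to 79.6, 277 and 82.9 CPM in the fibroblast-like cells against 7776, 12348 and 17270 CPM in macrophage-like cells. Median depth per fibroblast-like cell was 44189 UMIs on Day 3 and 10322 and 10276.5 UMIs on Days 7 and 14. The libraries shared 43 barcodes (Days 3 and 7), 19 (Days 3 and 14) and 111 (Days 7 and 14).

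Of the 9 genes, 7 lie in 3 groups of neighbours (mm10). *Aspn* (chromosome 13, 49544443 to 49567565), *Omd* (49582462 to 49592822) and *Ogn* (49608046 to 49624501) follow each other on the plus strand, with *Ecm2* before them, in 120 kb, and the gene *Cenpp* overlaps them on the minus strand. *Dcn* (chromosome 10, 97479609 to 97518143) and *Lum* (97565128 to 97572703) lie on the plus strand in a group of 203 kb with *Kera* and *Epyc*. *Prelp* (chromosome 1, 133910304 to 133921414, minus strand) and *Fmod* (134037254 to 134048277, plus strand) lie in a group of 151 kb with *Optc*. *Bgn* is on chromosome X (73483602 to 73495933, plus strand). *Podn* (chromosome 4, 108014791 to 108096445, minus strand) overlaps *Scp2* on the same strand, so the reads of this pair may be split and its level is uncertain.

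RefSeq sequence upstream of the start (GRCm38.p6, the assembly named mm10) was at hand for 7 of the 9 genes, all but *Dcn* and *Lum*. Distances count from the RefSeq start, which can differ from the gene positions above, as for *Prelp* and *Ogn*. The *Prelp* window thus overlaps the gene as placed above. The 250 bases before the start are shown, 5′ to 3′ along the gene's strand, for the 3 neighbours on chromosome 13, whose levels differed widely, and for the neighbours *Prelp* and *Fmod*, whose courses over the days differed. Capitals mark matches to TATAAA or CCAAT on either strand. TGANTCA was also searched on both strands and had no match in these windows.
*Aspn* (chr13:49544193-49544442, plus strand): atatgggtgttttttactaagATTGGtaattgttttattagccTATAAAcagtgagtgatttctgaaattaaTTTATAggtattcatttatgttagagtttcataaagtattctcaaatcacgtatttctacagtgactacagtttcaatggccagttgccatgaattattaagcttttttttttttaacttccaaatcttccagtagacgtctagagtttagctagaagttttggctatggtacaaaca
*Omd* (chr13:49582212-49582461, plus strand): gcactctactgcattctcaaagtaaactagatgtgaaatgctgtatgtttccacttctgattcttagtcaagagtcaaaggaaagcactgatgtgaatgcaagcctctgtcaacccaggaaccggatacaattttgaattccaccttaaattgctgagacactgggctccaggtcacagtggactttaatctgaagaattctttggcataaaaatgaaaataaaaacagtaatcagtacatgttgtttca
*Ogn* (chr13:49607765-49608014, plus strand): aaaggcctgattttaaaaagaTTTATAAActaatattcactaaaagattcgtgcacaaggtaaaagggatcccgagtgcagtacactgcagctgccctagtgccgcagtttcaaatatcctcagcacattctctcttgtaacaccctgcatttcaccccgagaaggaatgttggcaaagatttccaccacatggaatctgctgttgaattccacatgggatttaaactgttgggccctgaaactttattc
*Prelp* (chr1:133921402-133921651, minus strand): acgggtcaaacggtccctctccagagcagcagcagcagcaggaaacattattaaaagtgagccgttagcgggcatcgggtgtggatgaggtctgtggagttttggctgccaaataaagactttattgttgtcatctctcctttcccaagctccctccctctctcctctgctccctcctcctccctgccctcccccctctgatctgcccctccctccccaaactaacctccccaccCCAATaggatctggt
*Fmod* (chr1:134037004-134037253, plus strand): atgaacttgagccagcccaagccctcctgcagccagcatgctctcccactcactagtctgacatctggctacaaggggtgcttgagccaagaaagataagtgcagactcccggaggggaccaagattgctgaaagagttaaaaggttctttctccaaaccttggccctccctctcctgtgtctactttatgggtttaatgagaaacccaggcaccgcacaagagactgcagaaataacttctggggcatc

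The *Aspn* window held TATAAA on both strands (207 and 178 bases before the start) and CCAAT on the minus strand at 229 bases. That of *Ogn* held TATAAA on both strands in 1 overlapping run, at 227 and 229 bases, and that of *Prelp* held CCAAT 15 bases before the start. In 4 of the 7 members (*Fmod*, *Omd*, *Bgn* and *Podn*) none of the 3 motifs was present. Of 32851 windows of 250 bases upstream of mouse genes, 12.4% held TATAAA, 33.8% held CCAAT and 6.75% held TGANTCA. These matches describe letters only and are no evidence of binding.

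In fibroblast-like cells the 9 genes together took 5451 CPM on Day 3 (95% interval 5418 to 5483), 9590 CPM on Day 7 (9566 to 9614) and 13615 CPM on Day 14 (13588 to 13643). The sum was 1.76-fold higher on Day 7 than on Day 3 and 1.42-fold higher on Day 14 than on Day 7, and was 1.36% of the UMIs of these cells on Day 14. Over all kept cells of a library, whatever their class, the sum was 3099, 6279 and 10086 CPM, and the share of fibroblast-like cells moved with it. This chemistry gives 1 count per captured mRNA whatever its length, so gene length does not enter the levels. Whether capture or mapping differed between genes was not tested, so the order of genes below describes counts. *Dcn* was the highest on each day. *Fmod* was the lowest on Days 7 and 14, and on Day 3 its interval overlapped that of *Omd*. The 9 levels ran from 0.755 to 3487 CPM on Day 3.

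**Figure D1:**
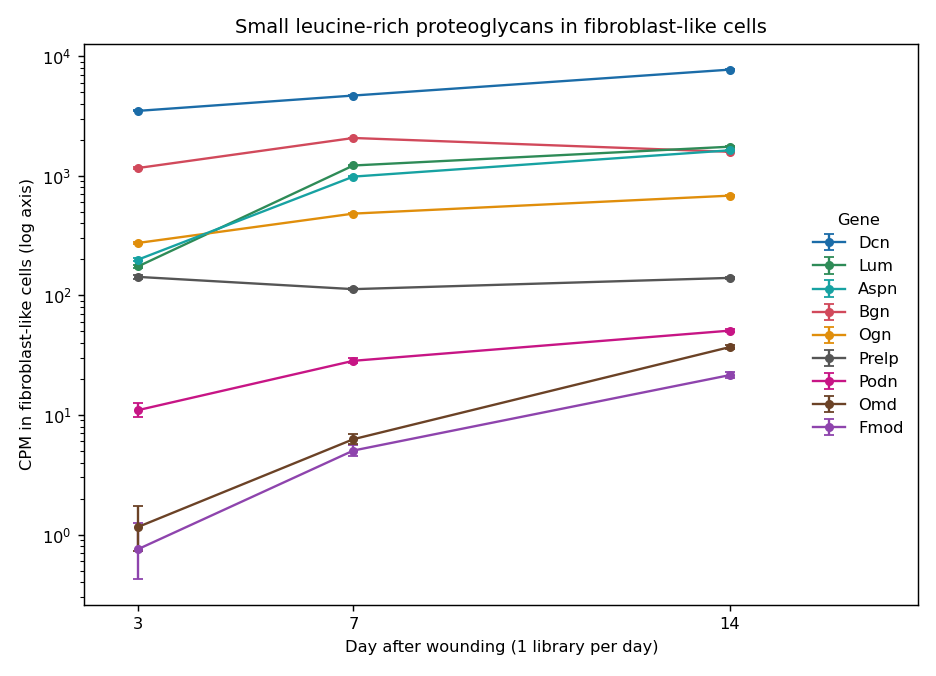
CPM of the 9 genes in fibroblast-like cells (log axis) against the day after wounding, 1 library per day. Bars are 95% Poisson counting intervals and lines join the days of 1 gene. *Lum* and *Aspn* go from 175 and 199 CPM on Day 3 to 1750 and 1633 CPM on Day 14, *Omd* and *Fmod* climb from 1.16 and 0.755 CPM, and *Prelp* stays between 113 and 143 CPM.

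*Dcn*, which encodes decorin, a collagen-binding proteoglycan that also binds transforming growth factor beta, was at 3487 CPM on Day 3 (3461 to 3513), 4684 CPM on Day 7 (4667 to 4701) and 7717 CPM on Day 14 (7696 to 7737). It was higher on each later day, by log2 ratios of 0.43 and 0.72. *Bgn* encodes biglycan, the closest relative of decorin, which carries glycosaminoglycan chains and is also known as a ligand of innate immune receptors. It was at 1161 CPM on Day 3 (1146 to 1176), 2069 CPM on Day 7 (2058 to 2080) and 1585 CPM on Day 14 (1576 to 1594). *Bgn* thus had its highest level on Day 7, and was the only member of the 9 with a lower level on Day 14 than on Day 7 (log2 ratio -0.38, -0.40 to -0.37). *Aspn* encodes asporin, a relative of decorin that lacks its glycosaminoglycan attachment site. It was at 199 CPM (193 to 205), 984 CPM (976 to 991) and 1633 CPM (1624 to 1642) on the 3 days, and most of the difference lay between Day 3 and Day 7 (log2 ratio 2.31, 2.26 to 2.35, against 0.73 from Day 7 to Day 14).

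*Lum*, which encodes lumican, a keratan sulphate proteoglycan needed for regular collagen fibrils in the cornea and skin, was at 175 CPM on Day 3 (169 to 181), 1218 CPM on Day 7 (1210 to 1227) and 1750 CPM on Day 14 (1740 to 1760). Its log2 ratio of Day 7 over Day 3 was 2.80 (2.75 to 2.85), the largest of the 6 members that passed the filter on low values described below. *Prelp* encodes a basic member of the family that lies beside basement membranes. It was at 143 CPM on Day 3 (137 to 148), 113 CPM on Day 7 (110 to 115) and 140.0 CPM on Day 14 (137 to 143). The Day 14 level of *Prelp* could not be told from its Day 3 level (log2 ratio -0.03, -0.09 to 0.03), and it was the only member lower on Day 7 than on Day 3 (log2 ratio -0.34, -0.40 to -0.28).

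*Omd* encodes osteomodulin, best known from bone matrix, and *Fmod* encodes fibromodulin, a collagen-binding keratan sulphate proteoglycan of tendon and cartilage. Both were scarce. *Omd* was at 1.16 CPM on Day 3 (23 UMIs, 0.734 to 1.74), 6.27 CPM on Day 7 (403 UMIs, 5.67 to 6.91) and 37.0 CPM on Day 14 (2596 UMIs, 35.6 to 38.4). *Fmod* was at 0.755 CPM on Day 3 (15 UMIs, 0.423 to 1.25), 5.04 CPM on Day 7 (324 UMIs, 4.51 to 5.62) and 21.6 CPM on Day 14 (1513 UMIs, 20.5 to 22.7). Over the whole period these scarce members had the largest ratios of the 9, 32.0-fold for *Omd* (log2 4.998, 4.41 to 5.66) and 28.6-fold for *Fmod* (log2 4.84, 4.11 to 5.68). For *Fmod* the Day 14 over Day 7 log2 ratio of 2.10 was 0.62 as the mean within the joint clusters described further on. On Day 3 the intervals of both genes overlapped, so their order on that day is not resolved.

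*Ogn*, which encodes osteoglycin, also called mimecan, was at 274 CPM on Day 3 (267 to 282), 482 CPM on Day 7 (477 to 488) and 682 CPM on Day 14 (676 to 688). *Podn*, which encodes podocan, was at 10.97 CPM (218 UMIs, 9.56 to 12.5), 28.4 CPM (1823 UMIs, 27.1 to 29.7) and 50.7 CPM (3559 UMIs, 49.1 to 52.4). Both were higher on each later day, with log2 ratios of 0.81 and 0.50 for *Ogn* and of 1.37 and 0.84 for *Podn*. As the mean within joint clusters, the Day 14 over Day 7 ratio of *Podn* turned to -0.32 and the Day 7 over Day 3 ratio of *Ogn* was 0.06. The 9 levels fell into the same ranks at the top and bottom on all days, with *Dcn* at the top and *Prelp*, *Podn*, *Omd* and *Fmod* in this order at the bottom, while *Ogn* was above *Aspn* and *Lum* on Day 3 and below both afterwards, and *Bgn* was next to *Dcn* until Day 7 and below *Lum* and *Aspn* on Day 14. Apart from *Omd* and *Fmod* on Day 3, neighbours in this order had intervals that did not overlap on any day. These intervals cover counting error only, and some steps were small. On Day 14 *Lum* was 1.07 times *Aspn*, and *Aspn* 1.03 times *Bgn*.

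Genes were kept if they had 10 UMIs or more in both libraries and reached 50 CPM in either, and members were counted against all genes that passed this filter. For Day 7 over Day 3, 6 of the 9 members passed, all but *Fmod*, *Omd* and *Podn*. Of these 6, 2 (*Lum* and *Aspn*) were at least 1 log2 unit higher, where 5.75% of 3220 genes were, and 0 were at least 1 log2 unit lower, where 11.0% were. Their median log2 ratio was 0.82 beside -0.27 over all genes that passed. For Day 14 over Day 7, 7 members passed, *Podn* only through its Day 14 level. None of the 7 was at least 1 log2 unit higher, against 3.03% of 2803 genes, and none was as much lower, against 4.03%. The median was 0.52 beside -0.08 over all genes. These counts moved with the scaling. With the 50 most abundant genes left out of the total, all Day 7 over Day 3 ratios were 0.21 log2 units higher, 4 members were past the limit (*Bgn* at 1.04 and *Ogn* at 1.02 joined), and the genes past it in either direction went from 185 higher and 354 lower to 254 and 221. With median-of-ratios scaling the shifts were 0.15 for Day 7 over Day 3, where 238 genes were then higher and 251 lower, and 0.18 for Day 14 over Day 7, where *Podn* was past the limit at 1.02 and the split went from 85 higher and 113 lower to 132 and 80.

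Since the members did not move in step, the make-up of the family in fibroblast-like cells differed between days. *Dcn* gave 64.0% of the family's UMIs on Day 3 (63.7% to 64.3%), 48.8% on Day 7 (48.7% to 49.0%) and 56.7% on Day 14 (56.6% to 56.8%). *Lum* gave 3.20%, 12.7% and 12.9%, and *Aspn* 3.65%, 10.3% and 11.99%. *Bgn* gave 21.3%, 21.6% and 11.6%, so its share was nearly the same on Days 3 and 7 and was lower on Day 14. The share of *Ogn* hardly differed, at 5.03%, 5.03% and 5.01%. For each UMI of *Dcn* there were 0.333, 0.442 and 0.205 UMIs of *Bgn* on the 3 days.

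The share of fibroblast-like cells with at least 1 UMI of a member was taken after every cell was thinned to 500 UMIs, because depth differed between days. *Dcn* was found in 72.8% of the thinned cells on Day 3 (68.2% to 77.1%), 84.2% on Day 7 (83.2% to 85.1%) and 94.7% on Day 14 (94.2% to 95.3%). Without thinning these shares were 99.8%, 99.6% and 99.7%. The same thinning in macrophage-like cells, a class that should lack these genes, gave 1.11%, 7.27% and 12.3% (7.75%, 28.4% and 48.0% unthinned, at median depths of 4058.5, 2541 and 3539 UMIs). *Lum* was found in 8.74%, 44.0% and 53.2% of thinned fibroblast-like cells (79.9%, 97.5% and 97.7% unthinned) and in 0.0739%, 3.26% and 3.95% of thinned macrophage-like cells. *Bgn* was found in 40.0%, 58.7% and 48.6% of thinned fibroblast-like cells (97.1%, 98.9% and 96.7% unthinned), beside 0.258%, 4.45% and 3.95% of thinned macrophage-like cells. *Omd* was found in 0 of 412 thinned cells on Day 3 (3 counts would be 0.728% of the thinned cells, and the interval runs up to 0.891%), in 0.334% on Day 7 and in 1.66% on Day 14 (5.58%, 5.76% and 25.01% unthinned), beside 0.0621% of thinned macrophage-like cells on Day 14. No cell was too shallow for this depth.

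Thinned to 2000 UMIs, which left out 13, 68 and 92 cells, the median fibroblast-like cell held UMIs of 3 members on Day 3, 4 on Day 7 and 5 on Day 14, and 10, 19 and 26 UMIs of the family. Only 1, 2 and 5 of these cells held none. *Dcn* varied more between cells on Day 3, with a variance 6.03 times its mean, than on Days 7 and 14, with 3.23 and 2.81 times. *Lum* did so too, with 3.46 times on Day 3, where its mean was only 0.396 UMIs, and 1.66 and 1.94 times later. For *Bgn*, *Ogn* and *Aspn* the ratio was 1.77, 1.29 and 1.38 on Day 3 and 2.10, 1.82 and 3.49 on Day 14. Their means were also higher on Day 14, at 3.05, 1.33 and 3.03 UMIs beside 2.31, 0.554 and 0.341. At equal relative spread this ratio rises with the mean, so a wider relative spread on Day 14 is not shown. A ratio of 1 is what counting alone gives.

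Fibroblast-like cells held 98.4%, 96.9% and 96.6% of all UMIs of the family on Days 3, 7 and 14, beside 55.9%, 63.4% and 71.6% of all UMIs of the kept cells. All 9 members had their highest level in fibroblast-like cells on Day 3 (4 classes with at least 50 cells), and 8 of 9 on Day 7 and on Day 14 (9 classes each). The other classes counted on Day 3 were all leukocytes. The share of all genes with their highest level in fibroblast-like cells was not computed, so these counts are a description only. Classes with fewer cells are outside these counts. The 10 pericyte-like cells of Day 3 held 2.48% of the *Bgn* UMIs (593) and 2.38% of the *Aspn* UMIs (97) with 0.826% of all UMIs, so both genes took a larger part of their UMIs than of those of fibroblast-like cells. The exception on Days 7 and 14 was *Fmod*. It was at 11.5 CPM in pericyte-like cells on Day 7 (14 UMIs, 6.27 to 19.2) beside 5.04 CPM in fibroblast-like cells, and at 27.3 CPM (50 UMIs, 20.3 to 36.0) beside 21.6 CPM on Day 14, where the intervals of the classes overlapped. The lead of fibroblast-like cells in *Omd* on Day 7 was also within counting error (6.27 CPM against 4.03 CPM in epithelial-like cells).

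**Figure D2:**
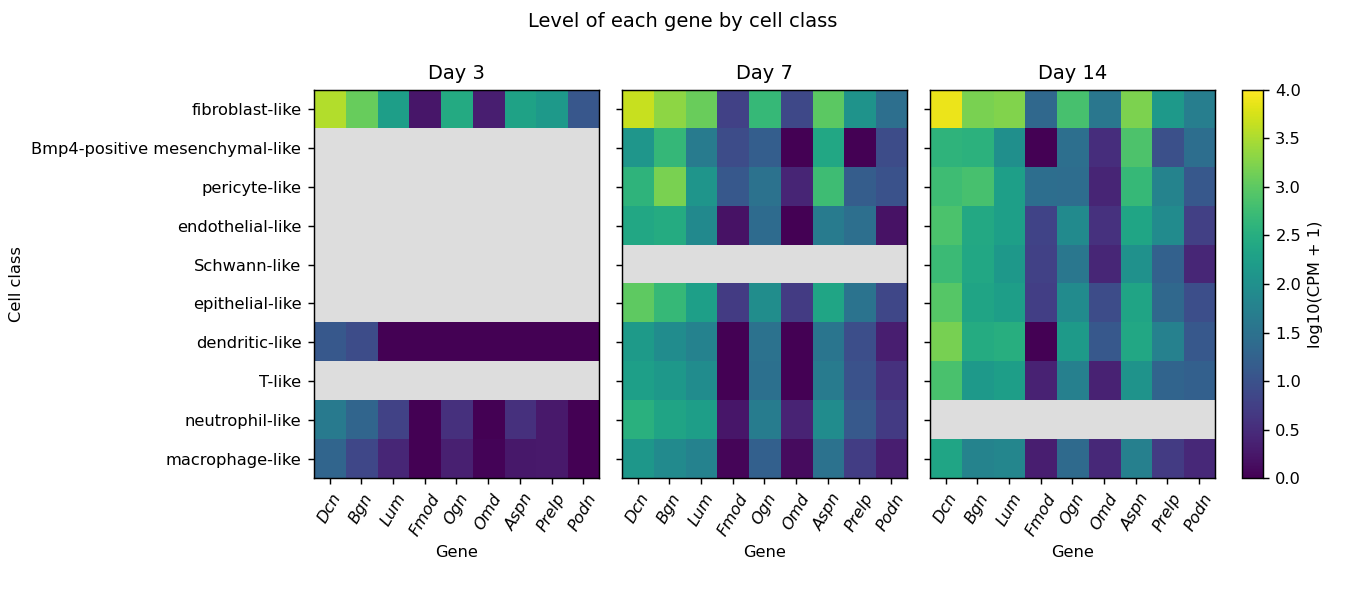
Level of the 9 genes as log10(CPM + 1), shown by colour, in each cell class (vertical axis) on Days 3, 7 and 14. Grey marks a class with fewer than 50 cells on that day. The top row, fibroblast-like cells, is brightest for all 9 genes on Day 3 and for 8 of 9 on Days 7 and 14, and pericyte-like and Bmp4-positive mesenchymal-like cells stand out for *Bgn* and *Aspn*.

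Against macrophage-like cells, 6 of 6 members that passed the filter on Day 3 were at least 3 log2 units higher in fibroblast-like cells (6.73 to 7.92 log2 units), as were 11.7% of 4131 genes. On Day 7 it was 6 of 6 (4.40 to 5.15 log2 units) beside 11.9% of 3640 genes, and on Day 14 it was 7 of 7 (4.70 to 5.13 log2 units) beside 12.3% of 3407 genes. The genes that did not pass were *Fmod* and *Omd* on all days and *Podn* on Days 3 and 7. The filter largely fixes these counts, because many members reached 50 CPM in fibroblast-like cells alone. This was so for all 6 on Day 3, for *Ogn*, *Aspn* and *Prelp* on Day 7 and for *Ogn*, *Prelp* and *Podn* on Day 14. Macrophage-like cells had more of these genes on the later days, with *Dcn* at 19.2, 132 and 220 CPM in them. Their make-up can be set beside that of the fibroblast-like cells of the same library: *Dcn* gave 63.8%, 40.8% and 50.8% of the family's UMIs in macrophage-like cells, and there were 0.322, 0.616 and 0.275 UMIs of *Bgn* per UMI of *Dcn*. The part of free RNA and of undetected doublets in these values was not tested.

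Pericyte-like cells, which wrap capillaries and other small vessels, had a different make-up. On Day 7 (185 cells), *Bgn* was at 1560 CPM in them and gave 57.3% of the family's UMIs (55.6% to 59.0%), *Aspn* was at 582 CPM and gave 21.4%, and *Dcn* gave 14.4%. There were 3.97 UMIs of *Bgn* per UMI of *Dcn*, beside 0.442 in fibroblast-like cells of the same library. On Day 14 (437 cells), *Bgn* was at 684 CPM, a log2 ratio of -1.19 to Day 7 (-1.29 to -1.09), and the ratio of *Bgn* to *Dcn* was 1.21 beside 0.205. *Aspn* was lower too, at 485 CPM (log2 ratio -0.26, -0.41 to -0.12), whereas *Prelp* went from 13.9 to 60.1 CPM (17 and 110 UMIs, log2 ratio 2.11, 1.36 to 2.94).

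Bmp4-positive mesenchymal-like cells, named from a marker list that follows the cluster table of the study, had more *Aspn* than *Dcn*. On Day 14 (720 cells) *Aspn* was at 772 CPM, *Dcn* at 404 CPM and *Bgn* at 369 CPM, and *Aspn* gave 45.2% of the family's UMIs (43.6% to 46.9%) beside 11.99% in fibroblast-like cells. *Podn* was at 26.7 CPM there, second to fibroblast-like cells. On Day 7 (67 cells, 124 UMIs of the family) *Bgn* was the largest part at 50.8%, before *Aspn* at 27.4% and *Dcn* at 13.7%. In endothelial-like cells (237 and 241 cells) *Prelp* was at 27.6 CPM on Day 7 and 82.9 CPM on Day 14 (log2 ratio 1.59, 1.10 to 2.09), and there were 0.110 and 0.111 UMIs of it per UMI of *Dcn* beside 0.0241 and 0.0181 in fibroblast-like cells. *Prelp* was therefore a larger part of the family in endothelial-like than in fibroblast-like cells of the same libraries, 5.24% (4.36% to 6.22%) against 1.03% on Day 14.

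**Figure D3:**
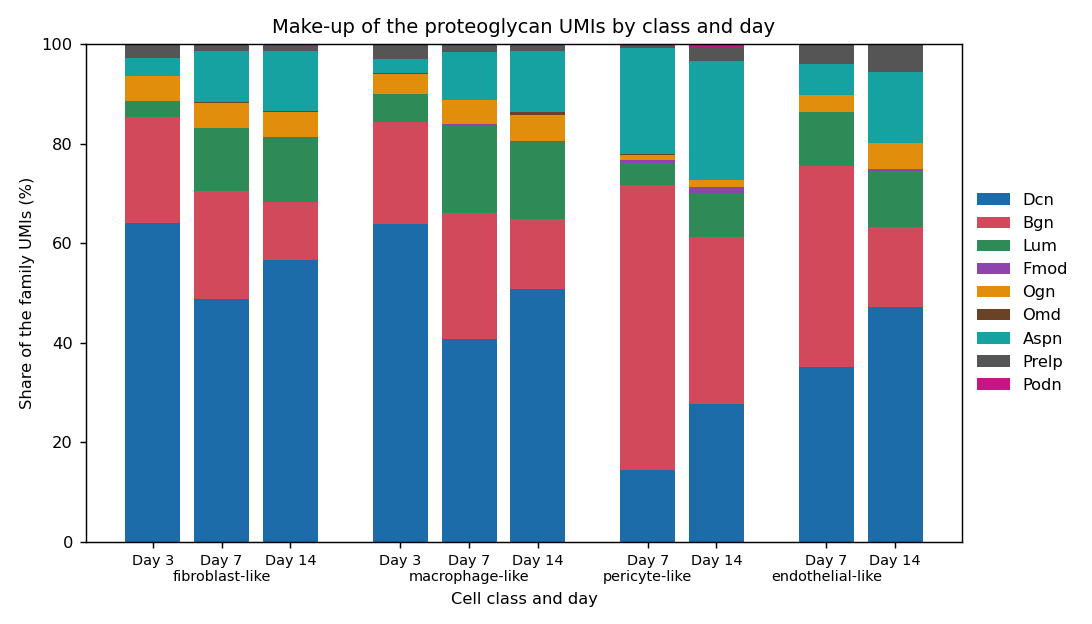
Share of the family's UMIs (vertical axis, %) given by each of the 9 genes in fibroblast-like, macrophage-like, pericyte-like and endothelial-like cells on each day with at least 50 cells. Each bar adds up to all family UMIs of that class and day, and *Bgn* is the largest part in pericyte-like cells on both days while *Dcn* is the largest in fibroblast-like and macrophage-like cells.

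Fibroblast-like cells of each library were clustered again with no member of the family among the genes used, which gave 4 subclusters of at least 50 cells on Day 3, 12 on Day 7 and 12 on Day 14. On Day 3, *Podn* varied most between them, from 3.98 to 46.5 CPM. On Day 14 it was *Fmod*, from 0.189 to 73.0 CPM, and *Dcn* varied least, from 5037 to 9573 CPM, a 1.90-fold range. Numbers below are those of the subclusters within their day, and the genes in parentheses are the ones that led each subcluster by fold.

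On Day 7, subcluster 5 (*Acta2*, *Tagln*, *Mmp13*; 563 cells), with *Acta2*, the smooth muscle actin of myofibroblasts, at 1439 CPM, had the lowest *Dcn* (1886 CPM), *Lum* (696 CPM) and *Prelp* (17.04 CPM) of the 12. Its *Bgn* was at 2831 CPM, its *Aspn* at 1437 CPM and its *Fmod* at 16.1 CPM, so it had more *Bgn* than *Dcn*. Subcluster 6 (*Cilp*, *Mgp*, *Eln*) had the highest *Bgn* (2906 CPM), *Fmod* (20.5 CPM) and *Podn* (69.9 CPM). Not all of these leads were beyond counting error, as the intervals of *Bgn* and *Fmod* overlapped those of subcluster 5. *Dcn* (7019 CPM) and *Ogn* (709 CPM) were highest in subcluster 7 (*Fgl2*, *Col6a5*, *Scara5*). Subcluster 4 (*Edn1*, *Akr1c18*, *Krtdap*) had the highest *Prelp* (236 CPM) and the lowest *Bgn* (830.0 CPM) and *Aspn* (510.2 CPM). Over the 12 subclusters of this day the Pearson correlation of log2(CPM + 1) was 0.91 for *Dcn* with *Prelp* and -0.68 for *Bgn* with *Prelp*, a description only, since the subclusters share 1 library.

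On Day 14, subcluster 1 (*Col8a1*, *Thbs4*, *Eln*; 1305 cells) had the highest *Fmod* (73.0 CPM), *Omd* (71.7 CPM), *Ogn* (1082 CPM) and *Bgn* (2474 CPM). *Aspn* (4336 CPM) and *Lum* (3131 CPM) were highest in subcluster 12 (*Prss35*, *Crabp1*, *Mmp11*), which had the lowest *Dcn*. Subcluster 7 (*Gal*, *Wfdc12*, *Ppp1r14a*) had the highest *Dcn* (9573 CPM) and *Podn* (139 CPM), with *Postn*, a matrix gene of wound fibroblasts, at only 167 CPM. *Prelp* was highest in subcluster 9 (*C6*, *Myoc*, *Igfbp3*) at 277 CPM. The lowest *Bgn* (431 CPM), *Lum* (888 CPM) and *Fmod* were in subcluster 6 (*Dmkn*, *Smpd3*, *Pla1a*), and the lowest *Ogn* (81.4 CPM), *Aspn* (727 CPM) and *Podn* (13.04 CPM) in subcluster 11, which was led by cell-cycle genes among others. The lowest *Fmod* (0.189 CPM) and *Podn* rested on few UMIs, so these places are uncertain. Over the 12 subclusters the correlation was 0.87 for *Ogn* with its neighbour *Omd* and 0.78 for *Bgn* with *Fmod*, and -0.21 for *Bgn* with *Dcn*. On Day 7 these pairs had 0.26, 0.61 and -0.48. Among the other neighbours on Day 14, *Aspn* had 0.47 with *Ogn* and 0.53 with *Omd*, *Dcn* had -0.14 with *Lum*, and *Prelp* had -0.06 with *Fmod*.

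**Figure D4:**
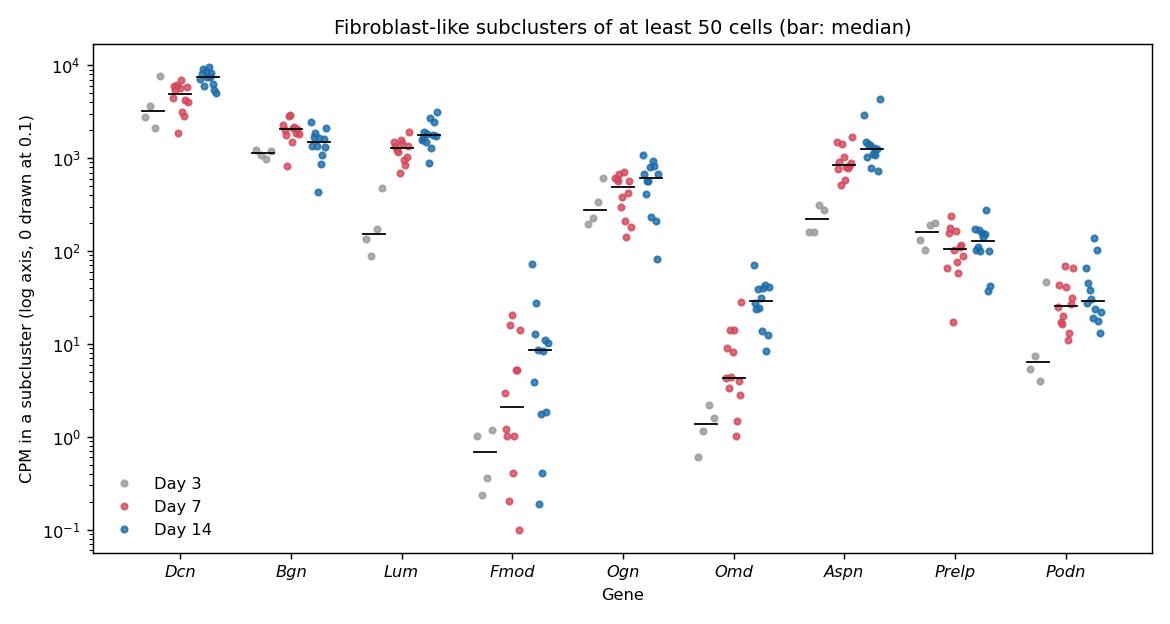
CPM (log axis, 0 drawn at 0.1) of the 9 genes in each fibroblast-like subcluster of at least 50 cells on Days 3, 7 and 14, with the median of a day as a bar. Each point is 1 subcluster, and *Fmod* spreads widest on Day 14 while *Lum* and *Aspn* on Day 3 lie below all subclusters of the later days.

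On Day 3 the 4 subclusters differed most in the one led by *Pi16*, *Lbp*, *Gas6* and *Clec3b* (subcluster 4, 68 cells). Its 9 members summed to 10413 CPM, beside 4099 to 5306 CPM in the other 3, with *Dcn* at 7592 CPM, *Lum* at 472 CPM, *Ogn* at 609 CPM and *Podn* at 46.5 CPM. The lowest *Dcn* of that day, 2109 CPM, was in the subcluster led by interferon-response genes (*Rsad2*, *Ifit1*; 75 cells). *Lum* in subcluster 4 was still below its lowest Day 7 value of 696 CPM. Subclusters led by genes of leukocytes were 2 of the 12 on Day 7 (10 and 11, with macrophage markers at 1957 and 180 CPM), and leaving out all such subclusters kept the sign of every member's ratio between days.

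All libraries were also clustered together, and the fibroblast-like cells of the days fell into different joint clusters. Clusters 12 and 20, the latter led by cell-cycle genes, held 57.5% and 39.1% of the Day 3 cells. Clusters 6, 1 and 12 held 37.4%, 28.7% and 18.2% of the Day 7 cells, and clusters 0, 10 and 1 held 57.4%, 21.2% and 18.8% of the Day 14 cells. Ratios between days were therefore also taken within those clusters that had 100 or more cells on each of the days compared. *Lum* and *Aspn* were higher on Day 7 than on Day 3 in both such clusters, by 3.09 and 1.84 log2 units in cluster 12 and by 2.52 and 2.23 in cluster 20. *Dcn* differed by 0.44 in cluster 12 and by 0.01 in cluster 20 (-0.02 to 0.03). *Ogn* was higher in cluster 12 (0.63) and lower in cluster 20 (-0.50, -0.62 to -0.38), and *Prelp* was lower in cluster 20 alone (-1.16, against 0.06 in cluster 12 with an interval from -0.04 to 0.16).

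From Day 7 to Day 14, *Bgn* was lower in each of the 3 clusters compared (log2 ratios -0.56, -1.27 and -0.59 in clusters 0, 1 and 6), and *Aspn* (1.27, 0.63 and 0.58) and *Omd* (1.71, 1.51 and 3.20) were higher in each. *Fmod* was the member whose pooled ratio differed most from the mean within clusters, 2.10 against 0.62. Its ratio was 0.76 in cluster 0 (79 and 1342 UMIs, 0.43 to 1.11) and 1.54 in cluster 6 (185 and 22 UMIs, 0.83 to 2.18), and in cluster 1 it rested on 9 and 5 UMIs (-0.45, -2.38 to 1.28). *Podn* was 0.84 log2 units higher in all fibroblast-like cells, but lower in cluster 0 (84.3 to 46.0 CPM, -0.88, -1.04 to -0.71) and in cluster 1 (36.8 to 21.2 CPM, -0.79, -1.01 to -0.58), and higher only in cluster 6 (0.72, 0.18 to 1.22), which held 104 Day 14 cells. Cluster 10, with 33 cells on Day 7 and 1410 on Day 14, had *Podn* at 148 and 96.8 CPM. *Prelp* was likewise 0.31 log2 units higher when pooled and 0.09, -0.40 and -0.11 within clusters 0, 1 and 6, with 178 CPM in cluster 10 on Day 14. The mean of the log2 ratios within clusters was -0.32 for *Podn* and -0.14 for *Prelp*, the opposite sign to the pooled values, and kept the sign for the other 7 members. Single clusters among those 7 also went against the pooled ratio, *Lum* in cluster 1 (-0.21, -0.25 to -0.18) and *Ogn* in cluster 6 (-0.51, -0.68 to -0.35).

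**Figure D5:**
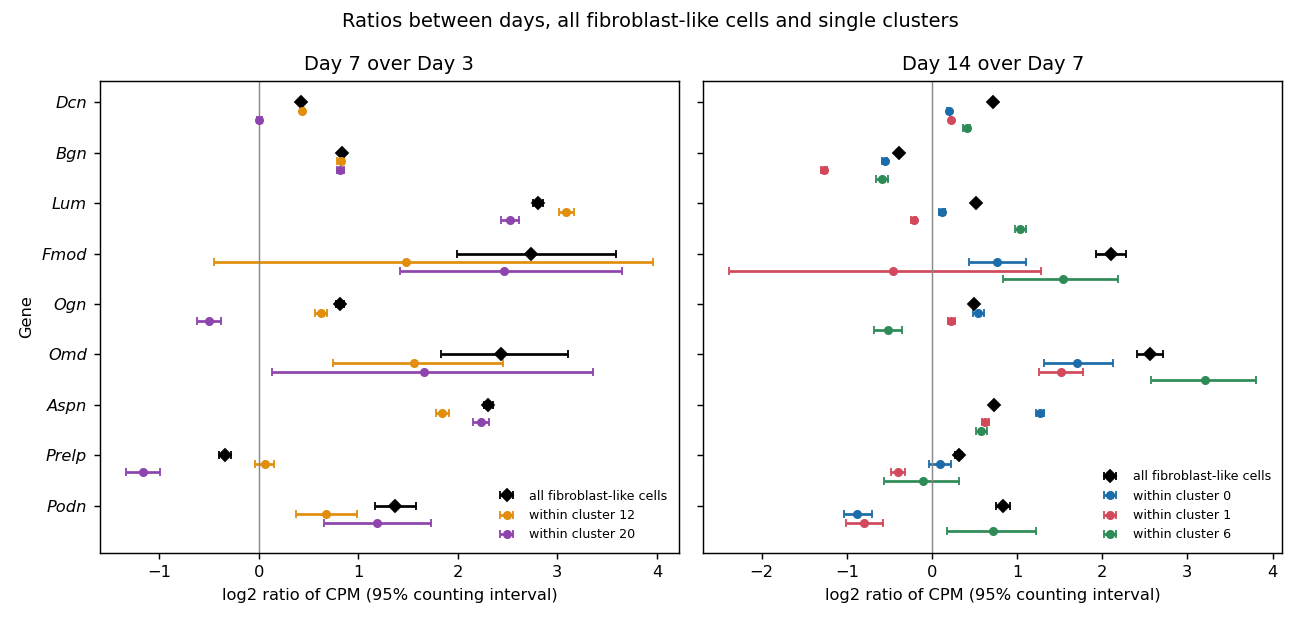
Log2 ratio of CPM (horizontal axis, with 95% counting intervals) of each gene for Day 7 over Day 3 and for Day 14 over Day 7. Diamonds are all fibroblast-like cells and circles single joint clusters with at least 100 cells of both days, and *Podn* for Day 14 over Day 7 has its diamond at 0.84 with 2 of 3 circles below 0.

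The genes whose pattern was most like that of a member were looked up over the 28 subclusters of the 3 days (4566 genes, Pearson r of log2(CPM + 1), no test, as subclusters of 1 day share a library). They were *Fxyd1* for *Dcn* (0.92), *Col16a1*, a fibril-associated collagen gene, for *Bgn* (0.79), *C1qtnf3* for *Aspn* (0.93), *Dact3* for *Fmod* (0.84), *Mmp23* for *Ogn* (0.80), *Kif13b* for *Omd* (0.91), *Ly6c1* for *Prelp* (0.86) and *Gas6* for *Podn* (0.87). For *Lum* it was the nuclear RNA *Malat1* (0.93). Between members, the highest value was 0.83 for *Lum* with *Aspn* and the lowest -0.51 for *Bgn* with *Prelp*. Within single days these pairs had 0.16 and -0.68 on Day 7 and 0.45 and -0.32 on Day 14. The 28 subclusters span 3 days, so differences between days enter all values taken over them, including those of the genes most like a member. Over the 22 classes of each day with at least 50 cells the closest were *Col1a2* for *Dcn* (0.98), the secreted-protein gene *Fstl1* for *Bgn* (0.98), *Aebp1* for *Lum* (0.97), *Mfap5* for *Ogn* (0.98) and *Col6a2* for *Aspn* (0.97). *Col1a2* was a fibroblast marker in the naming of the classes, so its value is partly set by that naming.

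Genes that act on these proteoglycans were counted in fibroblast-like cells by the same filter. Of 9 further genes of the family or beside it, 1 passed in each comparison. *Tsku*, which encodes tsukushi, was lower on Day 7 than on Day 3 (81.5 to 20.6 CPM, log2 ratio -1.98), and passed only through its Day 3 level. *Ecm2*, the neighbour of *Aspn* on chromosome 13, was at 6.79, 35.9 and 210.2 CPM on the 3 days, and was 2.55 log2 units higher on Day 14 than on Day 7, where it passed only through its Day 14 level. On Day 14 *Ecm2* was 4.95 log2 units above Day 3. Of the other genes of that group, *Omd* was 4.998 above (23 UMIs on Day 3), *Aspn* 3.04 and *Ogn* 1.31.

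Of 32 genes for the making of glycosaminoglycan chains and for sulphation, 13 passed for Day 7 over Day 3, with 0 at least 1 log2 unit higher and 0 as much lower, beside 5.75% and 11.0% of all genes, and a median of -0.58 beside -0.27. Of the 10 that passed for Day 14 over Day 7, 0 were higher and 2 lower, *Chsy1* (chondroitin synthase, 61.9 to 24.4 CPM, -1.35) and *Csgalnact1* (which starts chondroitin chains, 66.7 to 26.6 CPM, -1.33), beside 3.03% and 4.03% of all genes. Both passed only through their Day 7 level, and the median of the 10 was -0.23 beside -0.08 over all genes. The epimerase gene *Dse*, whose product turns chondroitin into dermatan sulphate, was at 155, 81.0 and 67.0 CPM, and its relative *Dsel* at 80.7, 133 and 111 CPM.

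Of 12 collagen partners and propeptide-processing genes, 11 passed in both comparisons. *Col1a1*, *Col1a2*, *Col3a1*, *Col5a1*, *Col6a1* and *Pcolce* of this list were also among the 8 fibroblast markers that named these cells. That they passed the filter thus partly follows from the naming and is no separate result. For Day 7 over Day 3, 3 were at least 1 log2 unit higher, *Col6a1* (2.04), *Col14a1* (1.997) and *Tnxb* (1.72), and 0 were lower, beside 5.75% and 11.0% of all genes. *Tnxb* lay outside the rule for named genes and was named after its value was seen, to complete the count. *Col14a1* and *Tnxb* encode proteins that associate with collagen fibrils of the dermis. For Day 14 over Day 7, *Pcolce2* was higher (51.4 to 212 CPM, 2.05) and *Col12a1* lower (598 to 159 CPM, -1.91), 1 gene each way beside 3.03% and 4.03% of all genes. Of 8 receptors that have been described to bind these proteoglycans, 3 passed in each comparison with 0 higher and 0 lower. The most abundant was *Lrp1*, an endocytic receptor that takes up decorin, at 521, 443 and 403 CPM.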

How the data were processed

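Cells of skin wounds were profiled with 3′ droplet chemistry in 1 library per day. The authors deposited raw UMI counts per gene and barcode, made with Cell Ranger 6.0.0 against mm10 per the submitters' processing notes, with no normalisation. The annotation version is not given in the sources used here. Each barcode held at least 500 UMIs in the tables, and 32158 of 32285 gene IDs were paired with a symbol.

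Barcodes with at least 500 UMIs, at least 200 genes and at most 10% mitochondrial UMIs were kept (4452, 21568 and 14472). Doublets were scored against simulated ones with 50 neighbours and removed up to 0.5 of a rate of 0.8% per 1000 barcodes (83, 1873 and 941 cells), so doublets remain. All libraries were clustered together without alignment (2000 variable genes, 30 principal components, 15 neighbours, Leiden resolution 1, 30 clusters). The 168 genes barred from clustering were the members, their related genes, *Gm42418* and those of mitochondria and ribosomal proteins. Clusters were named from marker lists with no member among them. A class needed 3 markers or more, each seen in 10% or more of the cells. Each also had to be 1 log2 unit or more above the lower quartile of its CPM over all clusters. The Bmp4-positive mesenchymal list follows the study's cluster table, made on these libraries. How markers were scored was changed once clusters had been seen, though not yet any value of a member. Fibroblast-like cells of each library were clustered again at resolution 0.6.

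Sums of UMIs over each class of a library were turned into CPM with exact Poisson intervals. Ratios have exact conditional binomial intervals and shares Clopper-Pearson intervals, all at 95%. Beside a share of 0 stands the share that 3 counts would make. Folds of 1 log2 unit (days) and 3 log2 units (classes) were used to count genes, since 1 library per day allows no test. The interval script was tested on simulated data. The genes named are the 9 members, the genes most like each member, *Acta2* and *Postn*. Also named are at most 4 from each of 4 lists of related genes (highest CPM or largest ratio). Leading genes of clusters and subclusters, and fibroblast markers that are in a list, are named too. The members, lists and alternatives were chosen with earlier results of these data known. The alternatives were other totals, thinning, filters, doublet and mitochondrial limits, clustering and class rules, and 3 were added after seeing the data. Python 3.11.15, numpy 2.4.6, scipy 1.17.1, pandas 2.3.3, scikit-learn 1.9.0, igraph 0.11.9, leidenalg 0.10.2 and matplotlib 3.10.9 were used.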

Additional observations from a re-analysis of the deposited data

Results flagged for a closer look

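From Day 7 to Day 14, the member levels moved in opposite directions in fibroblast-like cells and in another class for 3 gene and class pairs, with intervals on either side of 0. The differences between classes were not tested, since each day was 1 library. *Dcn* had a log2 ratio of -0.20 in epithelial-like cells (56 and 744 cells) beside 0.72 in fibroblast-like cells. *Bgn* had 1.74 in dendritic-like cells (299 and 98 cells) beside -0.38. *Aspn* had -0.26 in pericyte-like cells beside 0.73. In dendritic-like cells the other members that passed the filter had larger ratios, *Dcn* 3.37, *Aspn* 2.85, *Lum* 2.47 and *Ogn* 2.28. The UMIs of *Bgn* per UMI of *Dcn* went from 0.586 to 0.190 there, beside 0.442 to 0.205 in fibroblast-like cells. The part of free RNA and doublets was not tested.

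The family was also found in droplets outside the named cell classes. Barcodes left out by the cell filters held 803 CPM of the family on Day 3, 1376 CPM on Day 7 and 2125 CPM on Day 14. An unnamed cluster of cells with few UMIs (97, 347 and 443 cells) held *Dcn* at 2619, 2165 and 4700.0 CPM. Fibroblast-like cells had 3487, 4684 and 7717 CPM and macrophage-like cells 19.2, 132 and 220 CPM. All 8 fibroblast markers were raised in this cluster and no second class was scored. It was left unnamed for its few UMIs, with no marker among its leading genes. *Gm42418*, a gene that overlaps ribosomal RNA, was 2.52%, 39.0% and 13.8% of the UMIs of this cluster.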

How the results depend on the processing

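Of 168 counts of members recomputed under 18 alternatives, 166 were within 1.5 times the reported count. The 168 include the counts against macrophage-like cells, which the filter largely fixes, and counts of 0 that stayed 0. The 166 is therefore a weak measure of stability. Members at least 1 log2 unit higher on Day 7 than on Day 3 went from 2 to 4 with the 50 most abundant genes left out of the total, and those higher on Day 14 than on Day 7 from 0 to 1 with median-of-ratios scaling. Here the scaling moved all ratios alike. As the mean of ratios within clusters, the Day 14 over Day 7 log2 ratio turned to -0.14 for *Prelp* and to -0.32 for *Podn*. The cause was not tested. Every other member kept the sign of its ratio under all alternatives that gave a value. Among those that kept it, the mean within clusters moved by over 1.5-fold for *Fmod* (Day 14 over Day 7, 2.10 to 0.62, and Day 7 over Day 3, 2.74 to 1.97), and for *Omd* (2.44 to 1.61) and *Ogn* (0.81 to 0.06) on Day 7 over Day 3. On Day 7 over Day 3, *Fmod* was at 3.36 without the cycling cluster, an alternative added after seeing the data, which took it above the reported ratio. Thinned to 2000 UMIs, *Omd* and *Fmod* had too few UMIs on Day 3 to rest a ratio on, and 2 random draws differed in which of them had none.

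No paired analysis was possible because each day was 1 library, and leaving out a replicate could not be done for the same reason. Depth limits *Omd* and *Fmod* on Day 3, with 23 and 15 UMIs. Pooling of wounds and the depth of the library cannot be told apart from the day. The mix of clusters also differed between days, and *Lum* and *Aspn* were higher on Day 7 than on Day 3 within both clusters compared.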

Other observations

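Dendritic-like cells of Day 14 (98 cells) held more of the family than T-like and macrophage-like cells, the other leukocyte classes with at least 50 cells in that library. The dendritic-like class was 1 cluster, led by *Ccl22* and *Ccr7*. A cluster led by *Cd209a* (420 cells on Day 14) scored close for dendritic and macrophage markers, was left unnamed and is not in these values. Among the dendritic-like cells the values were as follows. The 9 genes summed to 2611 CPM in dendritic-like cells (2460 to 2768), beside 1228 CPM in T-like cells and 433 CPM in macrophage-like cells. There were 0.190 UMIs of *Bgn* per UMI of *Dcn* in dendritic-like cells, 0.203 in T-like cells and 0.205 in fibroblast-like cells. On Day 7 the sum was 367 CPM in dendritic-like cells (299 cells) and 880.0 CPM in neutrophil-like cells, whose median depth was 712 UMIs. The ratio of *Bgn* to *Dcn* was then 0.586, 0.617 and 0.769 in dendritic-like, neutrophil-like and T-like cells, and 0.442 in fibroblast-like cells. The part of free RNA and doublets in these sums was not tested.

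In Schwann-like cells of Day 14 (139 cells) the family summed to 1082 CPM, with 0.474 UMIs of *Bgn* per UMI of *Dcn*, beside 0.205 in fibroblast-like and 1.21 in pericyte-like cells. In epithelial-like cells the sum was 2011 CPM on Day 7 (56 cells) and 1599 CPM on Day 14 (744 cells), and the ratio of *Bgn* to *Dcn*, 0.476 and 0.244, can be set beside 0.442 and 0.205 in fibroblast-like cells.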
